A study of Homo sapiens with 12 samples.

Results

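The transcripts of 10 genes for plasma membrane amino acid transporters were followed over 4 treatment groups of the human melanoma line A375. The members were taken by gene symbol from the deposited table and were SLC3A2, SLC7A5, SLC7A6, SLC7A11, SLC38A1, SLC38A2, SLC1A5, SLC1A4, SLC7A1 and SLC6A9, that is 10 of the 20263 genes listed. All 10 passed edgeR's filter on low counts, as did 14287 genes in all. The cells, labelled wild type in every group, were untreated (Ctrl), treated with the compound DdBIC (written DBIC in the sample labels), treated with hemin, an oxidised form of heme that cells can take up, or treated with both (DdBIC+Hemin). Each group had 3 libraries, and the question was how hemin changes the response to DdBIC, a compound under which these cells undergo pyroptosis. Dose and duration are not given in the sources used here for this experiment. The study's methods lower the serum in the medium during DdBIC treatment, and whether the Ctrl and Hemin cells were kept in the same medium is not given in the sources used here. All libraries came from 1 cell line, and the study describes its data in general as from independent experiments without saying so for these libraries, so p-values measure the spread between these libraries, which may be technical.

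Amino acids cross the plasma membrane through solute carriers, many of which exchange one amino acid for another. The SLC3A2 product is the heavy chain of heterodimers whose transport unit is a light chain such as the product of SLC7A5, SLC7A6 or SLC7A11, and it carries these light chains to the cell surface. Several transporter genes are known targets of ATF4, the transcription factor of the integrated stress response, which binds composite C/EBP-ATF elements and raises amino acid uptake when translation is restrained by eIF2α phosphorylation.

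Levels between genes were compared per transcript length, as TPM, in the Ctrl libraries. SLC1A5, the glutamine and small neutral amino acid exchanger ASCT2, stood at 636 TPM ± 19.0 (SD, n = 3), SLC7A5 at 550 ± 288, SLC3A2 at 396 ± 14.0 and SLC38A2 at 222 ± 37.5. The middle of the order was held by SLC7A1 at 112 ± 1.87, SLC38A1 at 93.3 ± 2.14 and SLC6A9 at 60.6 ± 1.11. SLC7A11 at 35.3 ± 1.23, SLC7A6 at 30.5 ± 11.2 and SLC1A4 at 29.9 ± 1.64 were the lowest. SLC7A5 could not be placed against SLC1A5 or SLC3A2, nor SLC7A6 against SLC7A11 or SLC1A4, because their own replicates spread more widely than the gaps. The length behind TPM differed between libraries by a factor of 1.31 for SLC7A6 and by at most 1.09 for the other members, against a median of 1.06 over the 4567 genes that averaged 50 CPM or more. All other levels below are CPM, counts scaled to 1 common library size with TMM factors, which compare 1 gene between libraries.

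With DdBIC, SLC38A2 rose 1.93-fold and SLC3A2 1.61-fold, the largest rises among the members. The DdBIC effect on SLC3A2 was smaller in the presence of hemin by the interaction test, which SLC38A2 did not pass. SLC7A11 and SLC1A4 did not rise with DdBIC and were higher in the groups with hemin. Against Ctrl, DdBIC raised 5 members (4 by limma on TPM) and lowered 1 at an adjusted p under 0.05 (edgeR's quasi-likelihood test with Benjamini-Hochberg adjustment over all tested genes), while 20.0% of all tested genes were called higher and 17.2% lower. With upper-quartile factors the rises of SLC38A1 and SLC6A9 were not called, and SLC7A11 was also called lower. Hemin alone raised 5 and lowered 0, where 1.47% of all genes were higher and 2.59% lower. The count of members called with hemin was 2 by limma on TPM, 2 without Ctrl replicate 2, Ctrl replicate 3 or Hemin replicate 2, and 3 without Hemin replicate 1 or 3. Both the count lowered by hemin at an unadjusted p under 0.05 and the count by DESeq2 were also 0.

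Adding hemin to DdBIC raised 4 members and lowered 2 (2 and 2 by limma on TPM), against 13.5% and 18.4% of all genes. Of the 2 falls, that of SLC38A2 was not called in 13 of 21 refits, and leaving out libraries gave 4 to 6 members called in this comparison. DdBIC in the presence of hemin raised 2 members and lowered 0 (1 at an unadjusted p under 0.05, 0 by DESeq2), against 3.71% and 3.09% of all genes. The count of members called became 1 without Ctrl replicate 1, Hemin replicate 3 or DdBIC+Hemin replicate 3, and 0 without Hemin replicate 1 or DdBIC+Hemin replicate 1 or 2 and by limma on TPM. With both agents against Ctrl, 6 members were higher (4 by limma on TPM) and 0 lower (0 also at an unadjusted p under 0.05 and by DESeq2), where 5.66% of all genes were higher and 6.74% lower. The interaction, taken as the log2 effect of DdBIC in hemin-treated cells less that in cells without hemin, was called for 1 member, SLC3A2, as lower, against 6.40% of all genes called higher and 10.2% lower. The median log2 fold change of the members was 0.11 with DdBIC and 0.16 with hemin, where the medians over all tested genes were -0.01 and 0.00. These comparisons share groups: the Ctrl libraries serve DdBIC, hemin and both, and the DdBIC+Hemin libraries serve 3 of the pairwise ones. In bulk RNA, fewer cells of a type and less RNA per cell cannot be told apart.

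**Figure D1:**
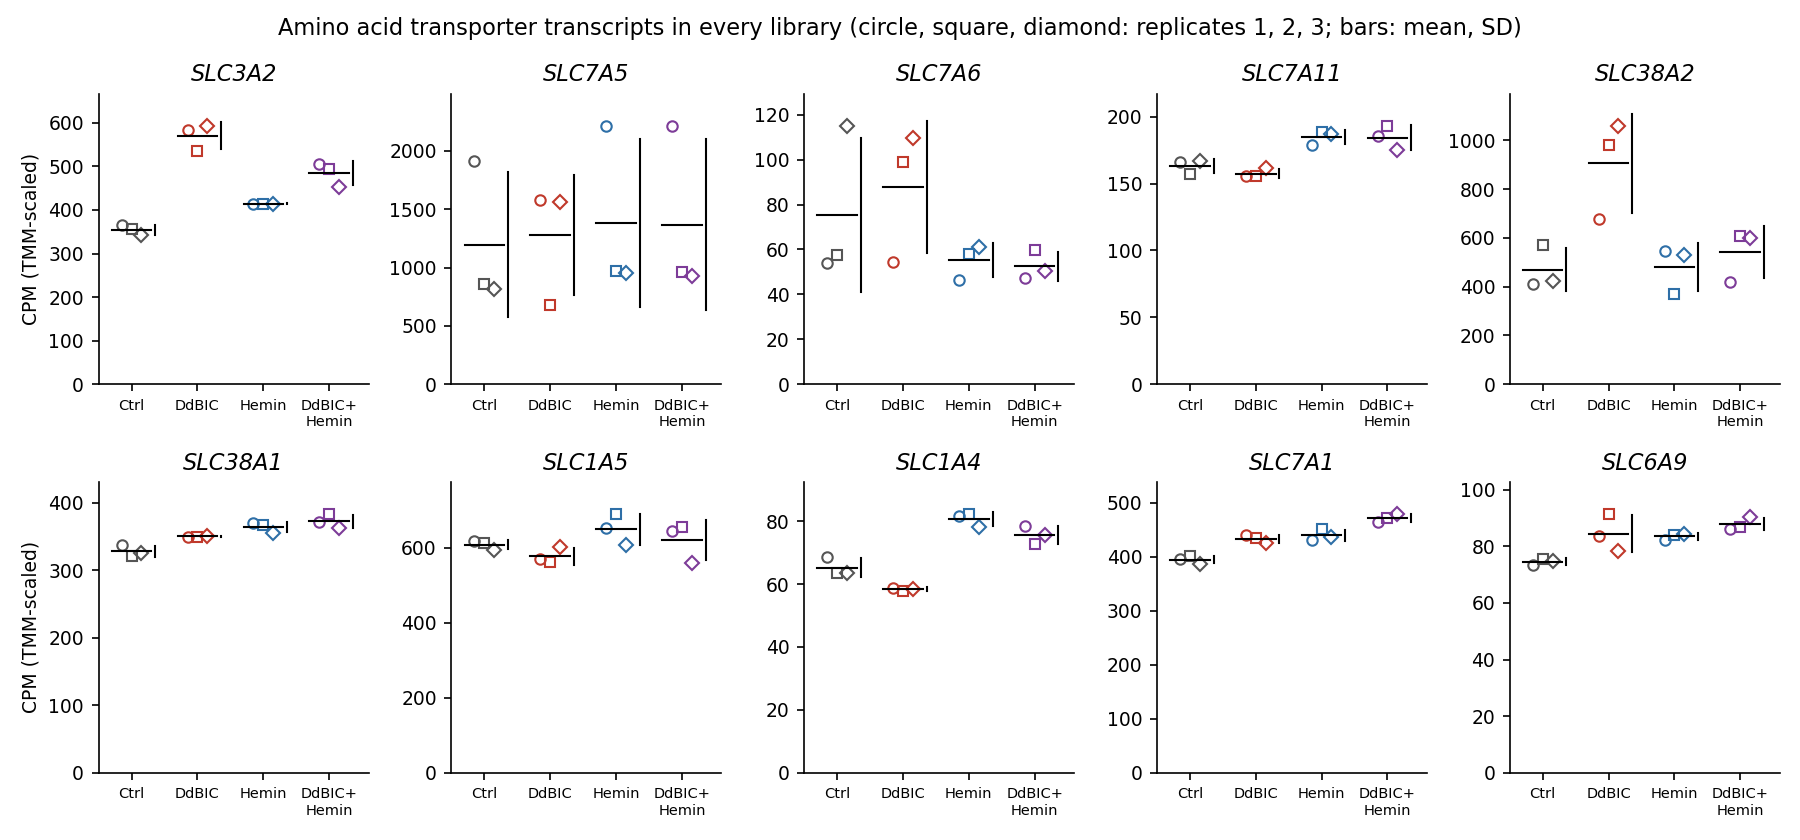
TMM-scaled CPM of each of the 10 transporter genes in the 12 libraries, on linear axes from 0; circles, squares and diamonds are replicates 1, 2 and 3, the horizontal bar is the group mean and the vertical bar its SD. SLC3A2 was highest in the DdBIC libraries (535 to 593), SLC7A11 and SLC1A4 were higher with hemin, and SLC7A5 took widely separated values within every group.

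The heavy chain gene SLC3A2 (ENSG00000168003, chr11:62856102-62888875, plus strand, GRCh38) rose with DdBIC and, less, with hemin. The RefSeq promoter (GRCh38.p14) at chr11:62881449-62881748, plus strand, 1 of 3 listed for the gene, is shown because it holds matches to 2 of the motifs searched, in capitals. The first match in the sequence is to TGACNNNGC, the core of the antioxidant response element, at position -37 from the start site, and the second to TGATGNAA, the core of the C/EBP-ATF response element, read on the opposite strand at position 38.
SLC3A2 promoter: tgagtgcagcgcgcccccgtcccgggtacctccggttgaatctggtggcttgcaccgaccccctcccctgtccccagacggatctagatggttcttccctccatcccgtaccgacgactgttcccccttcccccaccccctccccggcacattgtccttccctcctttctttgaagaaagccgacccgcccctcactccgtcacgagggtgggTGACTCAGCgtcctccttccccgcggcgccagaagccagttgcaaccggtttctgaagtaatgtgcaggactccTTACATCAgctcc

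SLC3A2 stood at 365, 356 and 343 CPM in the Ctrl libraries and at 584, 535 and 593 in the DdBIC libraries. It stood at 415, 415 and 415 with hemin and at 505, 495 and 454 with both. The 4 groups did not overlap in any pair, in the order Ctrl, Hemin, DdBIC+Hemin, DdBIC. DdBIC raised SLC3A2 by 0.69 on the log2 scale (SE 0.046, adjusted p = 7.79e-07 by edgeR). Hemin alone raised it by 0.23 (SE 0.046, adjusted p = 0.0208 by edgeR), and DdBIC in the presence of hemin by 0.22 (SE 0.046, adjusted p = 0.0145 by edgeR). On adding hemin to DdBIC it fell by 15.1% (log2 fold change -0.24, SE 0.046, adjusted p = 0.00249 by edgeR). The interaction was -0.46 (95% interval -0.61 to -0.32, adjusted p = 0.00064 by edgeR), so the DdBIC effect was smaller with hemin than without it, and with both agents SLC3A2 remained 1.37-fold above Ctrl (adjusted p = 9.72e-05 by edgeR). The rise with hemin alone was 0.20 to 0.25 when libraries were left out in turn and was no longer called without Ctrl replicate 2 or 3 or any 1 of the Hemin replicates (highest adjusted p = 0.0919 by edgeR) or by limma on TPM. The rise with DdBIC in the presence of hemin, 0.19 to 0.27, was not called without Hemin replicate 1 or DdBIC+Hemin replicate 1 or 2 (highest adjusted p = 0.062 by edgeR) or by limma on TPM (highest adjusted p = 0.113).

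SLC7A11 (ENSG00000151012, chr4:138164097-138242349, minus strand) encodes xCT, the light chain that imports cystine in exchange for glutamate and so feeds glutathione synthesis. Its level was 166, 157 and 167 CPM in the Ctrl libraries, 156, 155 and 161 with DdBIC, 179, 189 and 187 with hemin and 185, 193 and 175 with both. All 6 libraries with hemin lay above all 6 without it, and the Ctrl and DdBIC libraries overlapped. DdBIC did not change SLC7A11 detectably (log2 fold change -0.05, 95% interval -0.14 to 0.04, adjusted p = 0.346 by edgeR), except that with upper-quartile factors it was called lower (-0.11, adjusted p = 0.0394 by edgeR). Adding hemin to DdBIC raised it 1.17-fold (log2 fold change 0.23, SE 0.040, adjusted p = 0.00132 by edgeR), a call that held in all 21 refits. Hemin alone gave 1.13-fold (adjusted p = 0.0321 by edgeR), but that call was lost without any 1 of the Ctrl libraries or Hemin replicate 2 or 3 (log2 fold change 0.15 to 0.20, highest adjusted p = 0.122 by edgeR) and by limma on TPM. Both agents against Ctrl also gave 1.13-fold (adjusted p = 0.0157 by edgeR), not called without Ctrl replicate 2 or DdBIC+Hemin replicate 1 or 2 (log2 fold change 0.14 to 0.21, highest adjusted p = 0.0641 by edgeR), by limma on TPM or in a fit of these 2 groups alone.

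The transcript of the heavy chain was also read against that of the xCT light chain. The ratio of SLC3A2 to SLC7A11, in TPM, was 11.3, 11.9 and 10.5 in the Ctrl libraries and 19.0, 17.3 and 18.9 with DdBIC. It was 11.6, 11.5 and 11.6 with hemin and 14.0, 13.1 and 12.9 with both. The DdBIC libraries lay above all others, and the libraries with both agents lay between DdBIC and the remaining 2 groups. Exact two-sided permutation tests gave p = 0.1 for DdBIC against Ctrl, for both against Ctrl and for both against DdBIC, the smallest value that 3 against 3 libraries allow, and p = 0.6 for hemin against Ctrl.

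SLC7A5 (ENSG00000103257, chr16:87830023-87869488, minus strand) encodes LAT1, the light chain that brings in leucine and other large neutral amino acids in exchange for glutamine. It stood at 1916, 855 and 820 CPM in the Ctrl libraries and at 1579, 682 and 1566 with DdBIC. It stood at 2213, 973 and 954 with hemin and at 2215, 960 and 931 with both. Replicate 1 of every group and replicate 3 of DdBIC held the high values, and within a group the highest library was 2.32 to 2.38 times the lowest. No comparison was called for SLC7A5 (adjusted p 0.878 to 0.993 by edgeR), and with this spread the 95% interval of the DdBIC effect ran from -1.14 to 1.33 on the log2 scale, so that a rise as large as that of SLC3A2 was not detectable. The part of the replicate spread in this result was not tested further.

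**Figure D2:**
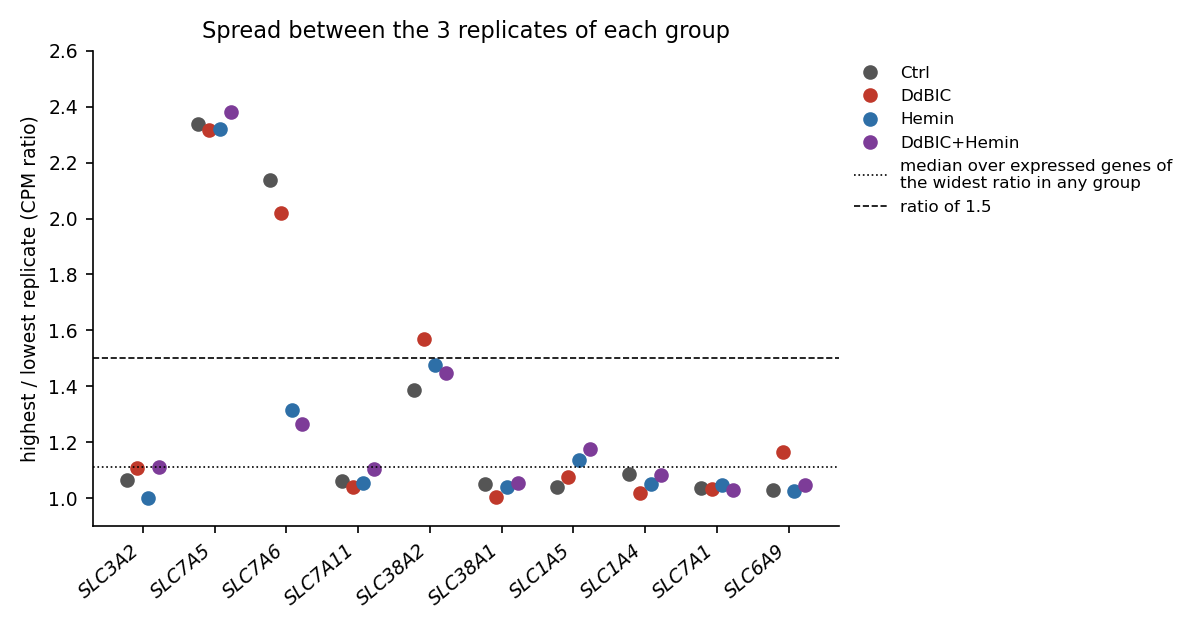
Ratio of the highest to the lowest of the 3 replicates (CPM) in each group, for each transporter gene; points are coloured by group, the dotted line is the median, over the 4567 genes averaging 50 CPM or more, of the widest such ratio in any group (1.11), and the dashed line marks 1.5. SLC7A5 exceeded 2.3 in all 4 groups, SLC7A6 exceeded 2 in Ctrl and DdBIC, and 7 members stayed under 1.2.

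Of those 4567 genes, 7.23% had a ratio over 1.5 between replicates of some group, and 2.56% a ratio over 2. Among the members these were SLC7A5 (2.38), SLC7A6 (2.14) and SLC38A2 (1.57). SLC7A6 (ENSG00000103064, chr16:68264516-68301823, plus strand) encodes y+LAT2, a light chain that releases cationic amino acids in exchange for neutral ones. It stood at 53.8, 57.5 and 115 CPM in the Ctrl libraries, 54.3, 99.0 and 110 with DdBIC, 46.5, 58.1 and 61.2 with hemin and 47.3, 59.7 and 50.6 with both. Values near 100 CPM or above appeared in 1 Ctrl and 2 DdBIC libraries and in no library with hemin, yet the groups overlapped in every pair. No comparison was called (the log2 fold change for hemin added to DdBIC was -0.74, 95% interval -1.50 to 0.02, adjusted p = 0.129 by edgeR). Without DdBIC replicate 1, the 1 DdBIC library that overlapped those with both agents, this fall was called (-0.99, adjusted p = 0.0485 by edgeR), and leaving out each library in turn gave -0.99 to -0.54. Its gene overlaps SLC7A6OS on the opposite strand over 17321 bases, a gene at 19.7 to 28.3 CPM. The strand setting of the counting is not given in the sources used here, and exons were not compared. Whether reads from the shared bases were kept apart is therefore not known.

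The system A transporter gene SLC38A2 (ENSG00000134294, chr12:46358189-46372867, minus strand) encodes SNAT2, which takes up glutamine, alanine and other small neutral amino acids with sodium and is induced when cells lack amino acids. Its promoter, at chr12:46372724-46373023 on the minus strand, is shown because the gene had the largest rise with DdBIC of the 10; none of the motif letters searched are in this window.
SLC38A2 promoter: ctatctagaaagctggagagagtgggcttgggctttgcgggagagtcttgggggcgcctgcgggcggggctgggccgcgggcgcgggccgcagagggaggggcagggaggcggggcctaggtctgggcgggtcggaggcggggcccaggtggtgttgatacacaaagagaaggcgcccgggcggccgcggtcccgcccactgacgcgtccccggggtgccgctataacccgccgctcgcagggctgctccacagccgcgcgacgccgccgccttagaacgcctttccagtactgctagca

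SLC38A2 stood at 412, 572 and 424 CPM in the Ctrl libraries and at 676, 981 and 1059 with DdBIC. It stood at 544, 369 and 531 with hemin and at 421, 609 and 599 with both. The 3 DdBIC libraries lay above all 9 others, and the remaining groups overlapped each other. DdBIC raised SLC38A2 by 0.95 on the log2 scale (SE 0.24, adjusted p = 0.012 by edgeR), between 0.81 and 1.12 when libraries were left out in turn. Hemin alone left it at a log2 fold change of 0.04 (95% interval -0.50 to 0.57, adjusted p = 0.972 by edgeR). Adding hemin to DdBIC gave -0.74 (SE 0.24, adjusted p = 0.041 by edgeR), but this call was lost with upper-quartile factors, without the low-count filter, in a fit limited to the DdBIC and DdBIC+Hemin libraries and on the removal of any 1 library other than Ctrl replicate 2, DdBIC replicate 1 and Hemin replicate 2, with values of -0.91 to -0.58 and a highest adjusted p of 0.129. The interaction of -0.77 did not pass (95% interval -1.53 to -0.02, adjusted p = 0.162 by edgeR).

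SLC38A1 (ENSG00000111371, chr12:46183063-46269951, minus strand) encodes SNAT1, a sodium-coupled glutamine transporter of the same family. Of its 2 RefSeq promoters, the one at chr12:46266467-46266766 on the minus strand is shown for its TGATGNAA match at position -4, in capitals.
SLC38A1 promoter: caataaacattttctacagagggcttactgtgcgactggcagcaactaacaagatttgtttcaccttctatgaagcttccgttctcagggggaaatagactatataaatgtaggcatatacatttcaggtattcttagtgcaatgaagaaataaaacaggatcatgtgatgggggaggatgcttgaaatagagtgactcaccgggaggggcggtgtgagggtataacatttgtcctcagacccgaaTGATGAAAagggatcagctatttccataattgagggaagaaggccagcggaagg

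SLC38A1 moved little, standing at 337, 321 and 325 CPM in the Ctrl libraries, 349, 350 and 351 with DdBIC, 369, 366 and 355 with hemin and 371, 383 and 363 with both. The Ctrl libraries were the lowest and the libraries with both agents overlapped those with hemin. The rise with both agents against Ctrl was 1.14-fold (log2 fold change 0.18, SE 0.028, adjusted p = 0.00135 by edgeR). Its other calls were smaller and less firm. The rise with DdBIC (log2 fold change 0.10, adjusted p = 0.0187 by edgeR) was lost without Ctrl replicate 2 or 3 or DdBIC replicate 3 (0.08 to 0.11 over all single removals), with library size only (0.07), with upper-quartile scaling (0.03) and by limma on TPM (0.08). That with hemin (0.15, adjusted p = 0.0119 by edgeR) was lost without Ctrl replicate 2 or 3 or Hemin replicate 1 or 2 (0.13 to 0.17) and by limma on TPM (0.13). That on adding hemin to DdBIC (0.09, adjusted p = 0.0303 by edgeR) was lost without any 1 of the DdBIC libraries or DdBIC+Hemin replicate 1 or 2 (0.07 to 0.11), in a fit of these 2 groups alone (0.10) and by limma on TPM (0.047), and upper-quartile scaling gave 0.15. In TPM, the ratio of SLC38A2 to SLC38A1 averaged 2.39 ± 0.455 (SD, n = 3) in the Ctrl libraries, 4.32 ± 0.955 in the DdBIC, 2.21 ± 0.439 in the hemin and 2.44 ± 0.470 in the DdBIC+Hemin libraries (exact two-sided permutation p = 0.1 for DdBIC against Ctrl and for both against DdBIC).

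SLC1A4 (ENSG00000115902, chr2:64988490-65023865, plus strand) encodes ASCT1, an exchanger of serine, alanine, cysteine and threonine. It was the 1 member that fell with DdBIC, and it rose with hemin. The second of its 2 RefSeq promoters, at chr2:64989149-64989448 on the plus strand, is shown for its TGATGNAA match, read on the opposite strand at position -7 and in capitals.
SLC1A4 promoter: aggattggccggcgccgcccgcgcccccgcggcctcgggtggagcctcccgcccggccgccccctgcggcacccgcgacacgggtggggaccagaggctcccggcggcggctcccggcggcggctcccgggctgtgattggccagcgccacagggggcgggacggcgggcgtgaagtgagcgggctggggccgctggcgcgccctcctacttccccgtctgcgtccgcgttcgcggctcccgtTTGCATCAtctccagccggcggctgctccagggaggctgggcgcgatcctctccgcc

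The level of SLC1A4 was 68.8, 63.6 and 63.4 CPM in the Ctrl libraries and 58.9, 57.8 and 58.4 with DdBIC. It was 81.5, 82.2 and 78.3 with hemin and 78.6, 72.6 and 75.6 with both. The DdBIC libraries were the lowest, and the libraries with hemin, which overlapped between the groups with and without DdBIC, were the highest. DdBIC lowered it by 0.16 on the log2 scale (log2 fold change -0.16, SE 0.043, adjusted p = 0.012 by edgeR). Hemin alone raised it 1.24-fold (log2 fold change 0.31, SE 0.043, adjusted p = 0.00241 by edgeR) and hemin added to DdBIC raised it 1.30-fold (log2 fold change 0.37, SE 0.043, adjusted p = 6.44e-05 by edgeR). The DdBIC effect in the presence of hemin was -0.09 (95% interval from -0.19 to just under 0, adjusted p = 0.248 by edgeR), and the interaction of 0.07 did not pass (95% interval -0.07 to 0.20, adjusted p = 0.522 by edgeR). With both agents it was 1.16-fold above Ctrl (adjusted p = 0.00726 by edgeR). These 4 calls of SLC1A4 held in all 21 refits.

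SLC1A5 (ENSG00000105281, chr19:46774883-46788594, minus strand), of the same family, stood at 619, 613 and 595 CPM in the Ctrl libraries, 569, 561 and 604 with DdBIC, 653, 689 and 606 with hemin and 644, 656 and 559 with both. The groups overlapped in every comparison made. No comparison was called (adjusted p 0.253 to 0.970 by edgeR), and the 95% intervals bounded the effect of DdBIC between -0.21 and 0.06 and that of hemin between -0.04 and 0.23 on the log2 scale. The log2 fold change on adding hemin to DdBIC was 0.10, between 0.06 and 0.17 when libraries were left out in turn, and it was called without DdBIC+Hemin replicate 3, the library at 559 CPM (0.17, adjusted p = 0.0264 by edgeR). A TGATGNAA match lies in the last of its 3 RefSeq promoters, at chr19:46784904-46784911 on the minus strand, shown here with its flanks for comparison with the sites of SLC1A4 and SLC3A2.
SLC1A5 site: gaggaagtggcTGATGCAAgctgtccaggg

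The remaining members carry other substrates. SLC7A1 (ENSG00000139514, chr13:29509410-29595688, minus strand) encodes CAT1, the transporter of arginine and other cationic amino acids. Its promoter, at chr13:29595639-29595938 on the minus strand, is shown for a TGACNNNGC match at position -85 and a TGATGNAA match at position 8, in that order in capitals.
SLC7A1 promoter: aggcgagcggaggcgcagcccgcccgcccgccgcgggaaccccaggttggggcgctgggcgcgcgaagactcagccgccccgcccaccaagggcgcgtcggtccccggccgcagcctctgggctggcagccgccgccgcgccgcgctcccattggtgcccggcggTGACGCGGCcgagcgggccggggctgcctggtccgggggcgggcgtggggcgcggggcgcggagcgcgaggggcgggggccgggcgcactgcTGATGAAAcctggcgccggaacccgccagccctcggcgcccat

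SLC7A1 stood at 396, 402 and 388 CPM in the Ctrl libraries and at 440, 435 and 426 with DdBIC. It stood at 432, 452 and 436 with hemin and at 465, 473 and 479 with both. The Ctrl libraries were below all others and those with both agents above all others, while the DdBIC and hemin libraries overlapped. Each agent raised it, DdBIC 1.10-fold (log2 fold change 0.13, SE 0.025, adjusted p = 0.00173 by edgeR) and hemin 1.11-fold (log2 fold change 0.16, SE 0.025, adjusted p = 0.00624 by edgeR). With both it was 1.20-fold above Ctrl (log2 fold change 0.26, SE 0.025, adjusted p = 7.57e-05 by edgeR), and the interaction was -0.03 (95% interval -0.11 to 0.05, adjusted p = 0.627 by edgeR). Adding hemin to DdBIC raised it by 0.12 (adjusted p = 0.00339 by edgeR), a call lost by limma on TPM (highest adjusted p = 0.055). The further rise with DdBIC in the presence of hemin, 0.10 (adjusted p = 0.0374 by edgeR), was called in 9 of 21 refits. It was lost without Ctrl replicate 1, Hemin replicate 1 or 3 or any 1 of the DdBIC+Hemin libraries (0.09 to 0.12, highest adjusted p = 0.145 by edgeR), with upper-quartile factors or library size only, by limma on TPM and in a fit of these 2 groups alone.

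SLC6A9 (ENSG00000196517, chr1:43991500-44031462, minus strand) encodes GlyT1, a sodium- and chloride-coupled importer of glycine, which is a building block of glutathione and heme. It stood at 73.4, 75.5 and 74.9 CPM in the Ctrl libraries, 83.5, 91.3 and 78.4 with DdBIC, 82.2, 84.2 and 84.3 with hemin and 86.2, 86.9 and 90.2 with both. Every treated library lay above every Ctrl library. DdBIC raised it 1.13-fold (log2 fold change 0.18, SE 0.049, adjusted p = 0.0141 by edgeR) and both agents 1.18-fold (log2 fold change 0.23, SE 0.049, adjusted p = 0.00892 by edgeR). The rise with DdBIC was 0.11 without DdBIC replicate 2 and 0.22 without DdBIC replicate 3, the lowest and highest values when libraries were left out in turn. Its call was lost with upper-quartile scaling (0.12) and in the fit of only the groups compared (highest adjusted p = 0.0847 by edgeR), and that with both agents by limma on TPM (highest adjusted p = 0.0527). For hemin alone the log2 fold change of 0.16 did not pass (95% interval 0.06 to 0.27, adjusted p = 0.0958 by edgeR), although the groups did not overlap. It was called without DdBIC replicate 2 or 3 and in a fit of the Ctrl and Hemin libraries alone (adjusted p 0.0276 to 0.0463 by edgeR). Adding hemin to DdBIC gave 0.06 (adjusted p = 0.423 by edgeR), called without DdBIC replicate 2 (0.12, adjusted p = 0.0396 by edgeR). CCDC24, on the opposite strand at 2.47 to 4.80 CPM, overlaps it over 5029 bases.

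**Figure D3:**
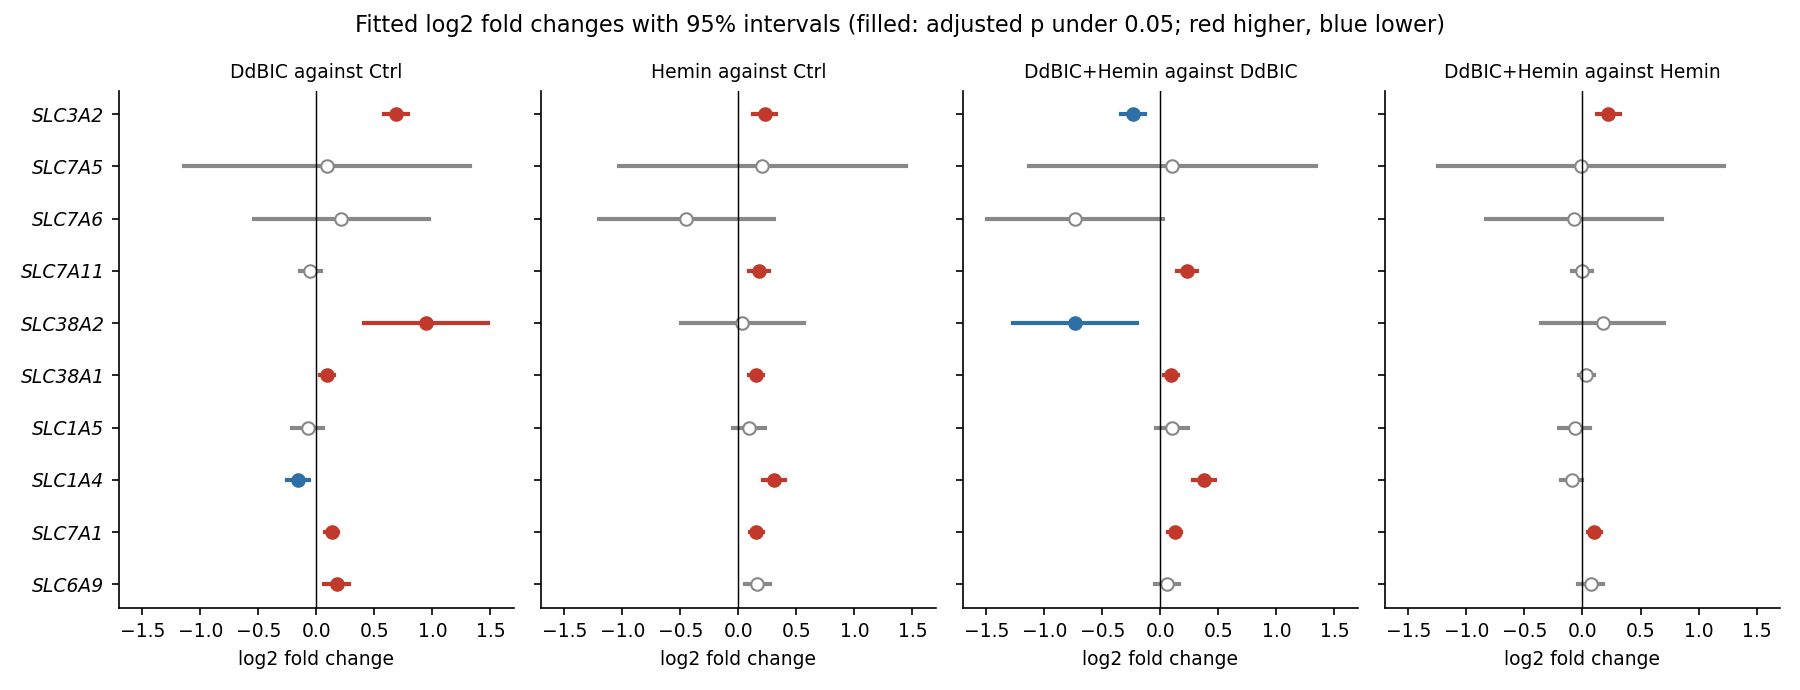
Fitted log2 fold changes of the 10 transporter genes with 95% intervals in 4 comparisons; filled points passed an adjusted p of 0.05 (red higher, blue lower), open points did not. SLC3A2 and SLC38A2 lie to the right with DdBIC and to the left when hemin is added to DdBIC, SLC1A4 does the opposite, and the intervals of SLC7A5 and SLC7A6 span 0 throughout.

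Across the promoters, 9 of 10 members were matched by symbol in the RefSeq table (GRCh38.p14; windows of 250 bases before to 50 after a start site), which did not include SLC7A11. The letters TGATGNAA, searched on both strands, were in a promoter of 5 of the 9 genes (SLC3A2, SLC38A1, SLC1A4, SLC1A5 and SLC7A1), where 4.46% of the 27305 genes in the table and 3.62% of its 35116 promoters hold them. SLC3A2 and SLC1A5 had 3 promoters each, which gives them more bases to match. TGACNNNGC was in a promoter of 5 of the 9 (SLC3A2, SLC7A5, SLC7A6, SLC1A5 and SLC7A1), against 16.1% of genes and 13.3% of promoters, and the E-box CACGTG in 2 (SLC7A5 and SLC1A5), against 8.77% and 7.26%. No matches of different motifs overlapped in the members' windows. Of the 5 genes with the TGATGNAA letters, 3 rose (SLC3A2, SLC38A1 and SLC7A1), 1 fell (SLC1A4) and 1 was not called (SLC1A5) with DdBIC, and SLC38A2, the gene with the largest rise, does not hold them in its window. These matches describe letters, not bound sites.

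Other genes of amino acid transport were counted from lists written for this comparison. Of 29 further plasma membrane amino acid transporters, 13 were expressed enough to be tested. Of these 13, 7 averaged under 3 CPM over the 12 libraries, while the members averaged 67.7 CPM or more. With DdBIC, 0 of the 13 rose and 1 fell, where 20.0% of all genes were higher and 17.2% lower. At 10.04 to 11.16 CPM with DdBIC against 12.2 to 14.4 in Ctrl, it was SLC1A1, a glutamate and cysteine importer (log2 fold change -0.29, adjusted p = 0.0187 by edgeR). It was also the 1 of 13 that fell with hemin (-0.47, adjusted p = 0.0114 by edgeR; 2.59% of all genes fell) and with both agents (-0.42, adjusted p = 0.0082 by edgeR; 6.74%), and 0 of 13 were called on adding hemin to DdBIC (13.5% of all genes higher and 18.4% lower), with DdBIC in the presence of hemin (3.71% and 3.09%) or in the interaction (6.40% and 10.2%). Of 10 lysosomal transporters, 7 were tested and 1, SLC36A4, was called in 1 comparison, higher with DdBIC (log2 fold change 0.18, adjusted p = 0.0382 by edgeR), where 20.0% of all genes were.

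Of 14 mitochondrial carriers listed, 13 were tested. With DdBIC 1 rose and 4 fell, where 20.0% of all genes rose and 17.2% fell. The list was meant for amino acid carriers but also held SLC25A39 and SLC25A40, which are linked to glutathione transport. SLC25A39 was among the 4 falls (-0.15, adjusted p = 0.0309 by edgeR). SFXN3, a sideroflexin (-0.42, adjusted p = 3.17e-06 by edgeR), the ornithine carrier SLC25A15 (-0.38, adjusted p = 0.000326 by edgeR) and the aspartate-glutamate carrier SLC25A12 (-0.24, adjusted p = 0.0253 by edgeR) fell the most, and SLC25A44, a carrier of branched-chain amino acids, rose (0.24, adjusted p = 0.000564 by edgeR). Adding hemin to DdBIC raised 3 of the 13, SLC25A15 (0.34), SFXN3 (0.23) and SLC25A39 (0.18), against 13.5% of all genes. It lowered 4, with SLC25A29 furthest (-0.27, adjusted p = 0.00196 by edgeR) and SLC25A40 among them (-0.23), against 18.4% of all genes. Hemin alone lowered 1, SLC25A29 (-0.24), against 2.59% of all genes. The interaction was called for SFXN3 (0.27) and SLC25A44 (-0.23), against 6.40% of all genes higher and 10.2% lower. With both agents 2 were below Ctrl (6.74% of all genes), and with DdBIC in the presence of hemin 1 fell (3.09% of all genes), SFXN3 (-0.16, adjusted p = 0.0187 by edgeR). The glucose and lactate carriers, 4 genes outside amino acid transport, held 1 rise with DdBIC, SLC2A3 (0.85, adjusted p = 8.47e-08 by edgeR), and 1 fall, SLC2A1 (-0.37, adjusted p = 0.00308 by edgeR), beside the same 20.0% and 17.2%. SLC2A3 fell again on adding hemin to DdBIC (-0.82), fell with hemin alone (-0.25) and rose with DdBIC in the presence of hemin (0.28), with an interaction of -0.57 (adjusted p = 0.00011 by edgeR).

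The enzymes that use what these transporters bring in were counted in the same way. Of 10 genes of glutathione synthesis and cystine use, 3 rose and 2 fell with DdBIC, where 20.0% of all genes rose and 17.2% fell. CHAC1, which degrades glutathione, rose most (log2 fold change 2.17, SE 0.26, adjusted p = 0.000123 by edgeR), then CTH, which makes cysteine from cystathionine (1.23, adjusted p = 8.75e-06 by edgeR), and GGT1 (0.85, adjusted p = 0.0326 by edgeR), while GSR (-0.27) and GSS (-0.20) fell. CHAC1 stood at 13.6, 14.7 and 6.34 CPM in the Ctrl libraries and at 50.2, 47.8 and 58.1 with DdBIC, and at 18.9, 21.8 and 18.8 with both agents, between those groups. With hemin alone 2 rose, GCLM, the modifier subunit of the first enzyme of glutathione synthesis (0.62, adjusted p = 0.00253 by edgeR), and CBS (0.37, adjusted p = 0.0029 by edgeR), where 1.47% of all genes rose. On adding hemin to DdBIC 5 rose, led by GCLM (0.87), TXNRD1 (0.60) and CBS (0.33), and 2 fell, CHAC1 (-1.39) and CTH (-0.56), against 13.5% and 18.4% of all genes. With both agents against Ctrl 3 were higher (GCLM, CTH and CBS), against 5.66% of all genes, and with DdBIC in the presence of hemin 1, GCLM (0.34, adjusted p = 0.0381 by edgeR), against 3.71%. The interaction was called for 4, lower for CHAC1 (-1.54) and CTH (-0.95) and higher for GSR (0.32) and GSS (0.17), where 10.2% of all genes were lower and 6.40% higher.

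Of 8 genes of glutamine and glutamate use, 7 were tested. With DdBIC, ASNS, the asparagine synthetase, rose (0.31, adjusted p = 7.36e-05 by edgeR), and GOT2 (-0.22) and GLUD1 (-0.20) fell, where 20.0% of all genes rose and 17.2% fell. With hemin alone 3 rose, ASNS (0.34, adjusted p = 0.000696 by edgeR), GPT2 (0.28) and GOT1 (0.23), against 1.47% of all genes. On adding hemin to DdBIC 5 rose, led by GOT1 (0.26), ASNS (0.22) and GLUD1 (0.18), and 1 fell, against 13.5% and 18.4% of all genes. With both agents 3 were above Ctrl (5.66% of all genes), and with DdBIC in the presence of hemin 1 (3.71%), ASNS (0.19). The interaction was called higher for GOT2 (0.22) and GLUD1 (0.20), as for 6.40% of all genes.

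Of 12 regulators linked to transporter genes, 6 rose and 1 fell with DdBIC, where 20.0% of all genes rose and 17.2% fell. ATF3 (4.42), DDIT3, which encodes CHOP (3.27), and CEBPB (1.89) rose most, followed by BACH1 (1.09), CEBPG (0.83) and ATF4 (0.67, SE 0.031, adjusted p = 3.3e-08 by edgeR), and EIF2AK4, which encodes the kinase GCN2, fell (-0.36, adjusted p = 7.62e-07 by edgeR). ATF4 transcripts stood at 457, 469 and 461 CPM in the Ctrl libraries, 765, 725 and 721 with DdBIC, 503, 521 and 507 with hemin and 623, 597 and 634 with both. The order of its groups was that of SLC3A2, and no pair of groups overlapped. On adding hemin to DdBIC 7 fell, led by ATF3 (-2.69), DDIT3 (-2.35) and CEBPB (-1.23), and EIF2AK4 rose (0.21), against 18.4% of all genes lower and 13.5% higher. With hemin alone 2 rose, CEBPG (0.31, adjusted p = 0.00753 by edgeR) and ATF4 (0.14, adjusted p = 0.0257 by edgeR), against 1.47% of all genes. With DdBIC in the presence of hemin 4 rose, led by ATF3 (1.41), CEBPB (0.44) and ATF4 (0.28), and 2 fell, ATF5 (-0.61) and EIF2AK4 (-0.12), against 3.71% and 3.09% of all genes. With both agents against Ctrl 5 were higher and 2 lower, against 5.66% and 6.74%. The interaction was called for 8, with 7 lower, among them ATF4 (-0.40, adjusted p = 0.00011 by edgeR) and CEBPG (-0.59, adjusted p = 0.000277 by edgeR), and EIF2AK4 higher (0.24), where 10.2% of all genes were lower and 6.40% higher.

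**Figure D4:**
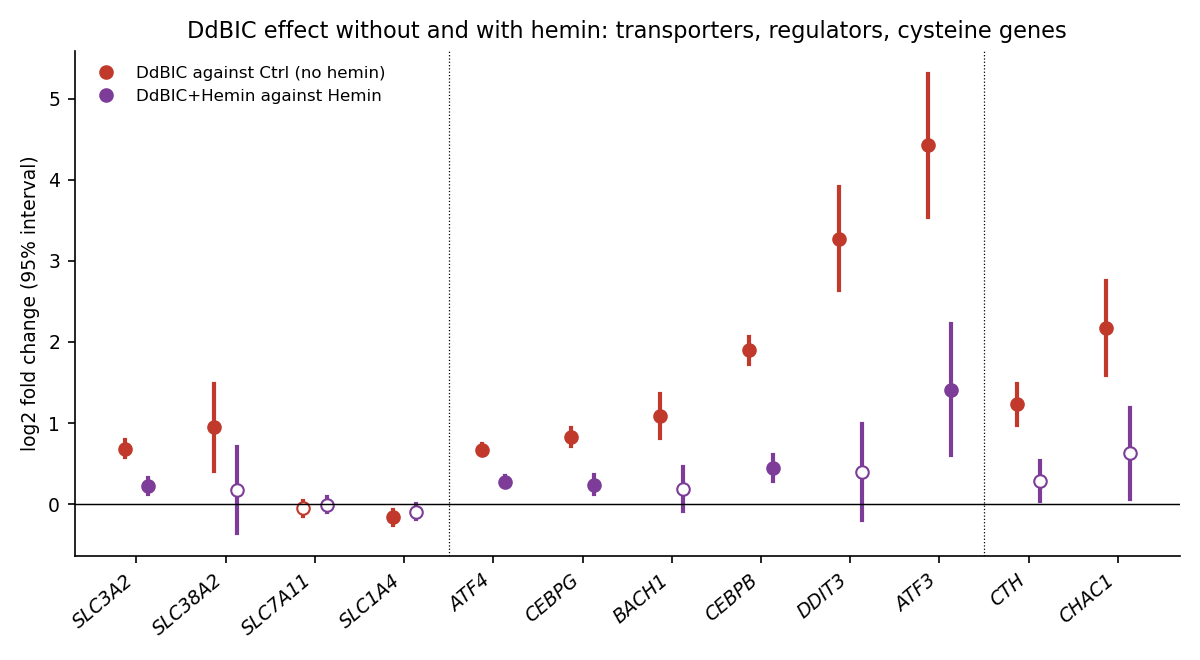
Log2 fold change with its 95% interval for DdBIC against Ctrl (red) and for DdBIC+Hemin against Hemin (purple), which share no libraries, in 4 transporter genes, 6 regulators and 2 genes of cysteine and glutathione metabolism; filled points passed an adjusted p of 0.05. The DdBIC effect on SLC3A2 was 0.69 without and 0.22 with hemin. The 6 regulators shown are those called higher with DdBIC, and each had a smaller effect with hemin. ATF5, a listed regulator not shown, was not called with DdBIC and fell with DdBIC in the presence of hemin (-0.61).

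The genes whose pattern over the 12 libraries was most like 3 of the members were listed by Pearson's r of log2 CPM over the 10677 tested genes averaging 5 CPM or more, as a description. For SLC3A2 these were SRSF6 (r = 0.990), CEBPG (0.989), IFRD1 (0.988), AJAP1 (0.984) and ETS1 (0.977). For SLC7A11 they were ABCF2 (0.954), PSAT1 (0.953), SLC31A1 (0.948), SRSF1 (0.947) and EPRS (0.945). For SLC7A5 no gene came as close, and the closest included RPS19BP1 (0.820), GOLGA1 (0.814), S100A4 (0.805) and MRPL23 (0.767). Libraries of 1 group share their treatment, so the 12 points are not independent. S100A4 also differed between replicates, standing at 154, 98.9 and 103 CPM in the Ctrl libraries and at 96.9, 87.6 and 153 with DdBIC, where replicate 1 was low and that of SLC7A5 high.

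The libraries held 37951275 to 44358912 counts, and the lowest correlation of log2 CPM between replicates was 0.985. HMOX1, which encodes an inducible heme oxygenase, stood at 7.26 to 9.18 CPM in the 6 libraries without hemin. It stood at 61.9 to 65.5 with hemin alone and at 146 to 188 with both agents, as labelled. DdBIC in the presence of hemin raised HMOX1 2.67-fold (adjusted p = 1.05e-05 by edgeR), and the part of this difference in the results was not tested. Of the melanoma and melanocyte markers, SOX10 was at 548 to 769 CPM and MITF at 8.31 to 21.5, whereas PMEL, MLANA, TYR and DCT were at 1.11 CPM or below in all libraries, so the pigment markers were near 0. Summed epithelial markers (4 genes) were at 2.69 to 4.21 CPM, fibroblast markers (4) at 11.2 to 17.1, endothelial markers (3) at 1.09 to 2.03 and immune markers (4) at 0.41 to 1.30, with PTPRC at 0 counts in every library. The summed melanoma and melanocyte markers (10 genes) reached 671 to 699 CPM in the Ctrl libraries, 768 to 823 in the DdBIC libraries, 598 to 608 in the Hemin libraries and 605 to 691 in the DdBIC+Hemin libraries, so they moved with the treatments, and their part in the results was not tested. The fibroblast sum was lower with DdBIC (11.2 to 12.2 CPM) than in Ctrl (14.4 to 16.6). The share of counts on mitochondrial genes was 2.42% to 2.99% with DdBIC and 2.90% to 3.43% in the other groups, and its part in the results was not tested.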

How the data were processed

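RNA-seq libraries of A375 cells were compared in 4 groups of 3, assigned from the treatment labels. The authors deposited, for 20263 genes, the count of reads per gene without normalization, a TPM value and an FPKM value per library. The submitters' processing notes name Trim Galore, Subread, featureCounts and hg38. Their roles and versions, the annotation release and the strand setting are not given in the sources used here. FPKM was not used. Counts were fitted with edgeR 4.0.16 in R 4.3.3 (filterByExpr, TMM factors, quasi-likelihood F tests, 1 mean per group over 12 libraries, 8 residual degrees of freedom), and p-values were Benjamini-Hochberg adjusted over 14287 genes. CPM are TMM-scaled, with a prior count of 2 only for log2 CPM. The 3 counts that a count of 0 allows correspond to 0.0676 to 0.0790 CPM. The steps were tested on simulated data.

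Alternatives were DESeq2 1.42.0, upper-quartile factors, library size only, no filter, at least 10 counts in every library, only the groups compared, a replicate block, limma 3.58.1 on log2(TPM + 0.5) and log2(TPM + 1), a minimum of 0.5 on the absolute log2 fold change, and leaving out each library. All but the minimum fold are refits. The members and lists were chosen with earlier results of these data known. Named were all members, HMOX1, up to 3 genes per direction with the largest change among those called in each list and comparison, and the 5 genes most like SLC7A11, SLC7A5 and SLC3A2. BACH1, CEBPG, ATF4 and SLC25A39 with DdBIC, ATF4 and CEBPG in the interaction, and CCDC24 and SLC7A6OS were named beside that rule, after their values were seen. Some genes that this rule names are not reported here. Protein sequences, though planned, were not used here. Promoters came from RefSeq (GRCh38.p14), whose build was compared with that of the table's GRCh38 coordinates by name alone. Each window was also checked for a start in the transcribed part of a GENCODE transcript. That start was found for the windows shown of SLC3A2, SLC38A2, SLC7A1 and SLC1A5. It was not found for those of SLC38A1 and SLC1A4, nor for the SLC7A5 window.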

Additional observations from a re-analysis of the deposited data

Results flagged for a closer look

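The effect of DdBIC on SLC3A2 differed between cells with and without hemin. It was 0.69 on the log2 scale without hemin and 0.22 with it, a difference of -0.46 (SE 0.065, adjusted p = 0.00064 by edgeR's quasi-likelihood test with an interaction term), and it lay between -0.50 and -0.42 when libraries were left out in turn. All 3 DdBIC libraries lay above all 3 Ctrl libraries, and all 3 libraries with both agents above all 3 with hemin alone.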

How the results depend on the processing

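Of 60 member and comparison pairs, 26 were called. In the refits with another tool, scaling, filter, set of groups, block or fewer libraries (up to 21 a comparison), all 26 kept their direction and 14 also kept their call, while 12 lost it in at least 1. Of the 34 that were not called, 14 changed sign and 5 became called in some refit. The minimum fold, which refits nothing, ended more calls. A minimum of 0.5 on the absolute log2 fold change left 2 of 6 members with DdBIC, 0 of 5 with hemin, 1 of 6 on adding hemin to DdBIC, and 0 with DdBIC in the presence of hemin, with both agents and in the interaction. For hemin against Ctrl, limma on TPM with either pseudocount called 2 members (6 at an unadjusted p under 0.05), and leaving out libraries gave 2 to 6. For DdBIC in the presence of hemin, upper-quartile factors, library size only, the replicate block and the fit of only the groups compared each called 1, limma on TPM with either pseudocount called 0 (3 at an unadjusted p under 0.05, and 2 by DESeq2), and leaving out libraries gave 0 to 2. The cause was not tested.

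Sign changes concerned values that were not called. For DdBIC in the presence of hemin, DESeq2 gave 0.00174 for SLC7A11, and limma on log2(TPM + 0.5) and log2(TPM + 1) gave -0.00381 and -0.00379 for SLC38A1 and 0.000748 and 0.000714 for SLC7A6. In the interaction, SLC7A1 was 0.021 with upper-quartile factors and SLC1A5 -0.084 and -0.084 by limma on TPM with pseudocounts 0.5 and 1. With libraries left out in turn, SLC7A5 ran from -0.12 to 0.61 (DdBIC), -0.31 to 0.72 (hemin), -0.43 to 0.32 (hemin added to DdBIC), -0.55 to 0.51 (DdBIC in the presence of hemin), -0.34 to 0.71 (both) and -0.64 to 0.41 (interaction). SLC38A2 with hemin ran from -0.062 to 0.20. For DdBIC in the presence of hemin, SLC7A11 ran from -0.039 to 0.032, SLC7A6 from -0.18 to 0.0057 and SLC1A5 from -0.11 to 0.0016, and SLC1A5 ran from -0.018 to 0.095 with both and from -0.039 to 0.077 in the interaction.

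The replicate numbers were shared by the groups, and deviations of same-numbered libraries correlated at -0.05 to 0.08. Differently numbered libraries correlated at -0.07 to 0.08. Between Hemin and DdBIC+Hemin, however, the same-numbered values (0.023 to 0.066) lay above all others (at most 0.015). Whether the numbers pair the libraries cannot be decided from values this small. A replicate block moved the genes called with DdBIC from 5310 to 5084 and with hemin from 580 to 408. On adding hemin to DdBIC they moved from 4559 to 4262, and with DdBIC in the presence of hemin from 971 to 776. With both agents they moved from 1771 to 1500, and in the interaction from 2376 to 2078. Among members it ended the calls of SLC7A11 with hemin, SLC38A2 on adding hemin to DdBIC and SLC7A1 with DdBIC in the presence of hemin.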
